A study of Rattus norvegicus with 20 samples.

Results

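The genes of glutamine transport and glutamate recycling described here are Slc38a1, Slc38a2, Slc38a3, Slc38a5, Glul, Glud1 and Slc1a1. They were taken as every probe set whose array annotation names exactly 1 gene and names 1 of these 7, which gave 13 probe sets of 31099 on the array, for 7 of the 14217 genes named there. Slc38a1 and Glul each had 3 probe sets, Glud1 and Slc1a1 had 2 each, and Slc38a2, Slc38a3 and Slc38a5 had 1 each. The RNA came from globular bushy cells of Sprague Dawley rats, the neurons of the ventral cochlear nucleus whose axons cross the midline and end as calyces of Held in the medial nucleus of the trapezoid body (MNTB). All rats, at every age, had received an injection of fluorescent cholera toxin B into the opposite MNTB 24 h before they were killed, and 200 tracer-labelled cells per animal were cut by laser from frozen sections of 12 µm. The RNA of each animal went through 2 rounds of linear amplification. The ages were P3, when the calyx has just formed (6 animals), P8, a juvenile stage (9 animals), and P21, when the synapse is mature (5 animals). P8 replicates 5 to 9 are shown apart from P8 replicates 1 to 4, and "P8" alone means replicates 1 to 4.

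Neurons that release glutamate lose carbon and nitrogen with every cycle of release, and much of it returns as glutamine. In the glutamate-glutamine cycle, astrocytes take up released glutamate, glutamine synthetase (Glul) turns it into glutamine, system N transporters such as Slc38a3 and Slc38a5 let the glutamine out, and system A transporters such as Slc38a1 and Slc38a2 carry it with sodium into neurons, where it is turned back into glutamate. Glutamate dehydrogenase (Glud1) links mitochondrial glutamate to 2-oxoglutarate, and Slc1a1 (EAAC1) is a neuronal plasma membrane carrier of glutamate and cysteine.

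Values are log2(intensity + 1), where the deposited intensity of each array is scaled to a common trimmed mean. Differences between ages and their adjusted p came from limma, fitted to 22417 probe sets above log2 4 in at least 4 of the 15 arrays of P3, P8 and P21, with Benjamini-Hochberg adjustment over all of them and a call under 0.05. The remaining P8 arrays, replicates 5 to 9, differed in array-wide measures. Their spike-in controls averaged 12.94 to 13.85, against 8.53 to 9.36 on the other 15 arrays. Their mean correlation with P8 replicates 1 to 4 was 0.657 (n = 20 array pairs). It was 0.918 within P8 replicates 1 to 4 (n = 6 pairs) and 0.742 within P8 replicates 5 to 9 (n = 10 pairs). Among the fitted arrays, the genes fixed as marks of bushy and other excitatory neurons (9 of 10 measured, all above log2 4) averaged 8.56 ± 0.06 at P3, 9.39 ± 0.42 at P8 and 10.26 ± 0.19 at P21 (SD, n = 6, 4 and 5). Markers of other cells were also present, and their levels changed with age. The oligodendrocyte list (11 of 12 measured) averaged 4.67 ± 0.46, 7.34 ± 0.54 and 8.46 ± 0.35 in the same order. By limma 11 of 11 were called higher at P21 than at P3, against 21.2% of all genes tested. Of the 11, 6 averaged below log2 4 at P3 and passed the filter on low values through the later ages. The astrocyte list (13 of 14 measured) averaged 7.98 ± 0.26, 7.91 ± 0.31 and 8.27 ± 0.17. No list had a marker at 0 on all 15 arrays, and Itgam and Slc6a5 alone never exceeded log2 4 on them. The GAPDH control signal at the 3' end minus that at the 5' end, a measure of how far the RNA copies fall short of full length, was 3.99 ± 0.66 at P21 and 2.91 ± 0.27 at P3 (n = 5 and 6, two-sided exact permutation p = 0.00216, the smallest it can give, adjusted p = 0.0238 over 33 array measures).

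**Figure D1:**
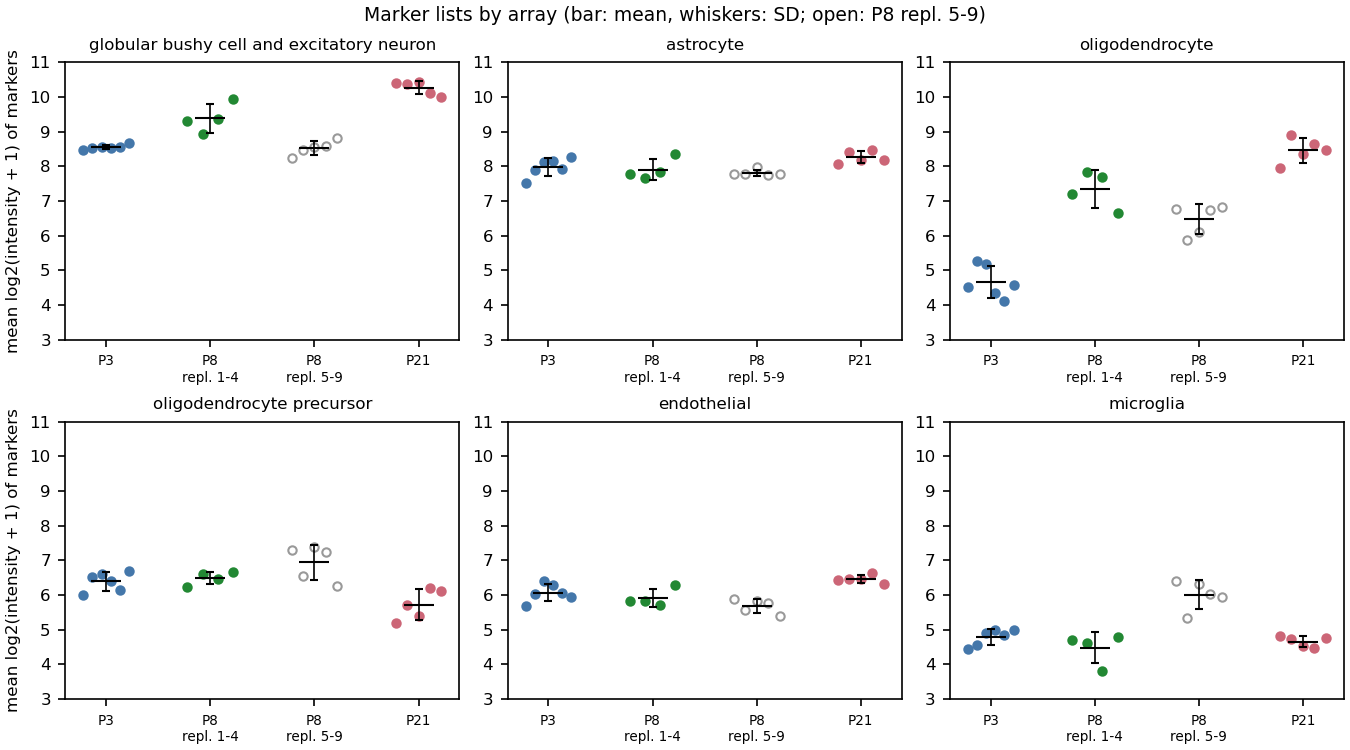
Mean log2(intensity + 1) of the marker genes of 6 cell types (y axis) on each array at P3, P8 replicates 1 to 4, P8 replicates 5 to 9 (open) and P21 (x axis). Points are arrays, bars the mean and whiskers the SD. Neuronal and oligodendrocyte markers are highest at P21, at 10.26 and 8.46, and astrocyte markers lie between 7.52 and 8.47 on the 15 arrays of the fit.

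Slc38a1 and Slc38a2, the system A transporters that rose at P21, are neighbours on rat chromosome 7 on the same strand, with 3 annotated genes between them (a pseudogene, a lncRNA and a snRNA). Slc38a5, the system N transporter that fell, lies on chromosome X. Their promoters are shown because these 3 genes gave 3 of the 4 calls between P21 and P3. RefSeq (GRCr8) promoters were matched for 5 of the 7 genes, each from 250 bases before to 50 bases after the annotated start. Slc38a3 and Slc1a1 were not matched. Capitals mark matches, on either strand, to TGATGCAA (a C/EBP-ATF composite site), CCAAT (a common promoter box), TATAA (the core of a TATA box), GGGCGG (a GC box) or TGACG (the core of a cyclic AMP response element), and none of the matches overlap.
Slc38a1, chr7:129681352-129681651, minus strand: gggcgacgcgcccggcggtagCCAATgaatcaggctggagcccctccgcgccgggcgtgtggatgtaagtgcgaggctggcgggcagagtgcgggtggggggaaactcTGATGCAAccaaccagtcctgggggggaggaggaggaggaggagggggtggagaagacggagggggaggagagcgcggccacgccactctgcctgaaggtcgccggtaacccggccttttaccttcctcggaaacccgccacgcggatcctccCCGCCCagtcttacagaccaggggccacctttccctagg
Slc38a2, chr7:129742570-129742869, minus strand: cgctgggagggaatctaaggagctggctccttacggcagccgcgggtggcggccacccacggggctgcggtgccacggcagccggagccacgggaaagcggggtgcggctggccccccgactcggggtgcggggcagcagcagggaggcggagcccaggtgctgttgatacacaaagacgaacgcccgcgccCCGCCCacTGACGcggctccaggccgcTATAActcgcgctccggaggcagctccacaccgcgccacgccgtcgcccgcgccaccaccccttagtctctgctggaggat
Slc38a5, chrX:16894421-16894720, minus strand: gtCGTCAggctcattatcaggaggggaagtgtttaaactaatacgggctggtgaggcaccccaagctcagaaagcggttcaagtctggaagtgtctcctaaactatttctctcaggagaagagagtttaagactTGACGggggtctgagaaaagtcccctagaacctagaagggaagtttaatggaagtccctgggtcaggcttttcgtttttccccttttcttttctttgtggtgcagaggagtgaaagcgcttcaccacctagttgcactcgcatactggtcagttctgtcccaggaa
TGATGCAA begins 142 bases before the start of Slc38a1 and is held by 0.795% of the 33469 rat promoters of this length. CCAAT (37.5% of promoters) begins 229 bases before the same start, and a GC box (33.1%), read on the opposite strand, follows that start. Slc38a2 holds TATAA (26.2% of promoters) 31 bases before its start, TGACG (21.2%) 50 bases before and a GC box, again on the opposite strand, 58 bases before. Slc38a5 holds TGACG on both strands, 116 and 248 bases before its start, and no other of the 5 motifs. The motifs were chosen after the sequences had been read, and a match is a description of letters only.

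At P21, 4 of the 12 tested member probe sets differed from P3, where 36.3% of all probe sets tested were called. Slc38a1 and Slc38a2 rose (18.3% of all were called higher) and Slc38a5 and Slc1a1 fell (18.0% of all were called lower), while Slc38a3, Glul and Glud1 gave no call. The same 4 were the member probe sets whose P21 and P3 ranges did not overlap, against 26.9% of all probe sets tested. The median difference over the 12 was 0.02 on the log2 scale, and over all probe sets tested it was 0.03. The median absolute difference was 0.24 over the members and 0.48 over all. The 13th member, a dim probe set of Slc38a1 (1390559_at), exceeded log2 4 on 1 of the 15 arrays and was not tested. In RNA from many cells, fewer cells of a type and less RNA per cell cannot be told apart.

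**Figure D2:**
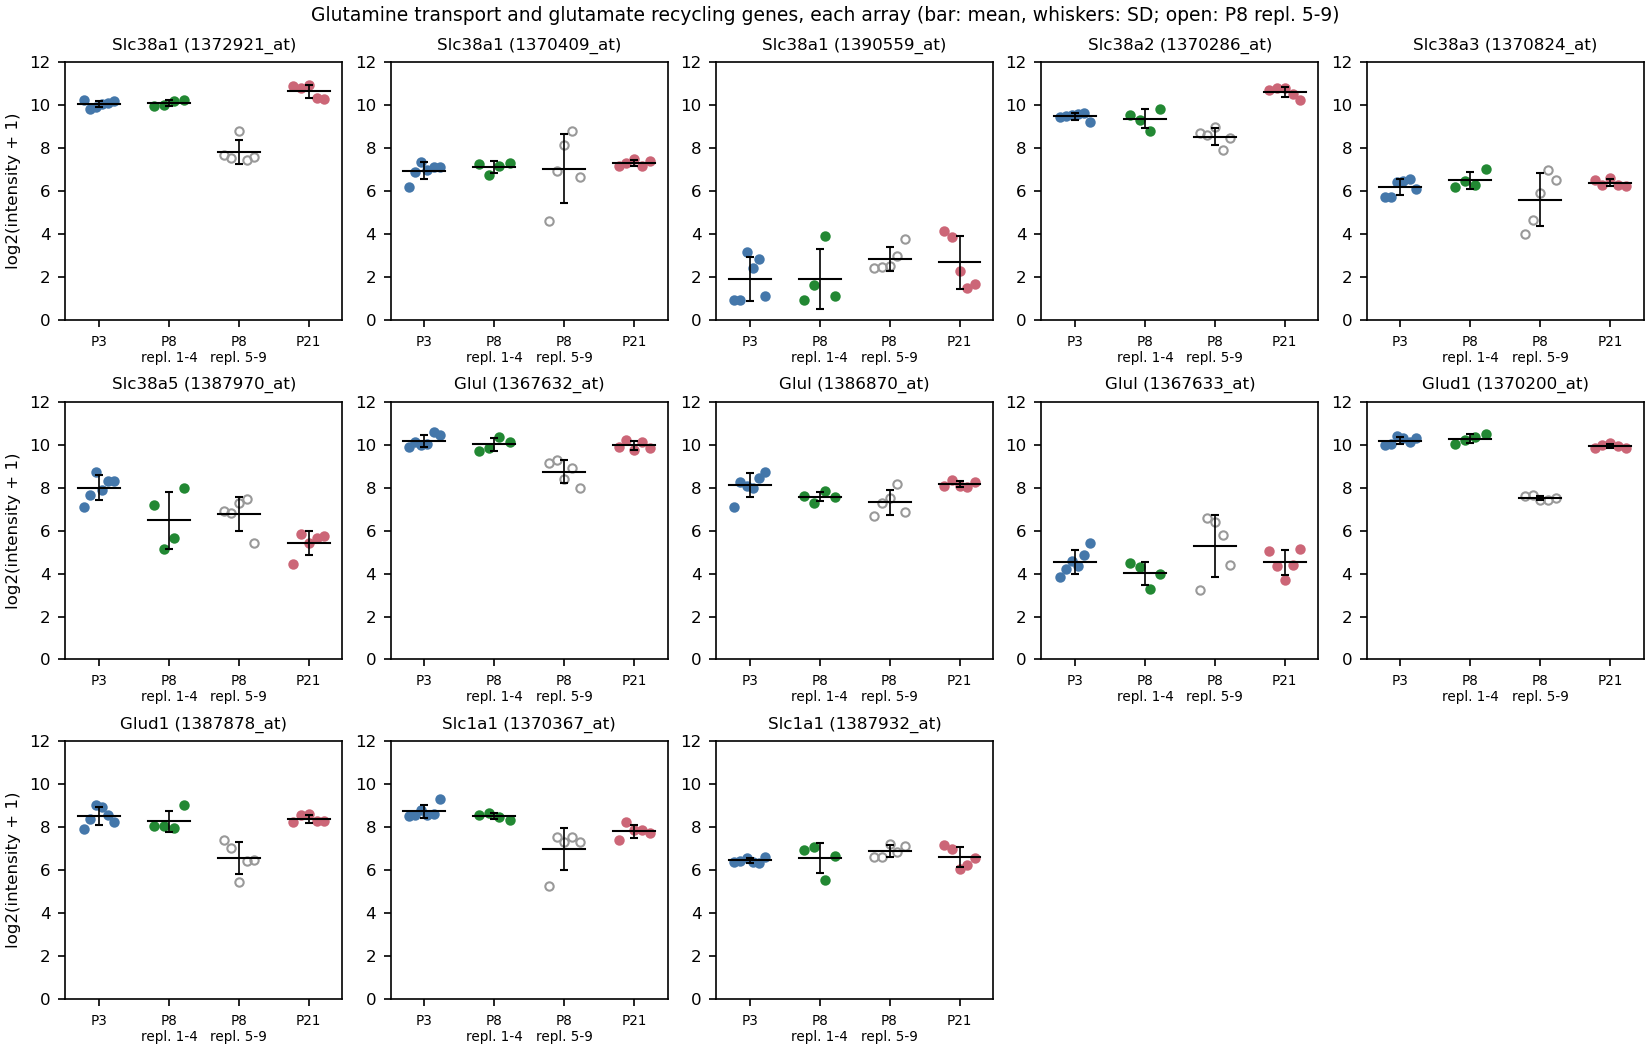
log2(intensity + 1) of each of the 13 probe sets (y axis, from 0) on every array at P3, P8 replicates 1 to 4, P8 replicates 5 to 9 (open) and P21 (x axis). Points are arrays, bars the mean and whiskers the SD. The P21 arrays of Slc38a2 lie between 10.22 and 10.79, above all P3 and P8 arrays, and those of Slc38a5 lie between 4.47 and 5.83, below all P3 arrays.

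Slc38a2 (SNAT2), a system A glutamine transporter, gave the larger of the rises. Its log2 level was 10.70, 10.79, 10.79, 10.54 and 10.22 in the P21 animals, and at P3 it ran from 9.20 through a median of 9.51 to 9.65. Every P21 array lay above every P3 array. The level averaged 10.61 ± 0.24 at P21 and 9.49 ± 0.16 at P3 (SD, n = 5 and 6), a log2 difference of 1.12 ± 0.18 (SE, limma adjusted p = 2.04e-04), or 2.17-fold. At P8 the arrays read 9.56, 9.31, 8.81 and 9.83, which overlapped P3. The P8 minus P3 difference was -0.11 ± 0.19 (adjusted p = 0.743, 95% interval -0.52 to 0.30), and P21 exceeded P8 by 1.23 ± 0.20 (adjusted p = 8.37e-04).

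Slc38a1 (SNAT1), the other neuronal system A transporter, rose less. The log2 level of 1372921_at was 10.90, 10.79, 10.92, 10.35 and 10.27 at P21, and at P3 it ran from 9.83 through 10.08 to 10.23. The groups did not overlap, although P21 replicates 4 and 5 lay close to the highest P3 array. The means were 10.64 ± 0.31 at P21 and 10.06 ± 0.15 at P3, a difference of 0.59 ± 0.15 (adjusted p = 0.00762). P8 arrays read 9.95, 10.02, 10.21 and 10.24, and P21 exceeded P8 by 0.54 ± 0.17 with an adjusted p of 0.0429. That call was lost on leaving out any of 11 single arrays (highest adjusted p 0.0976, without P21 replicate 3). The second tested probe set of Slc38a1, 1370409_at, averaged 7.31 ± 0.15 at P21 and 6.94 ± 0.40 at P3, a difference of 0.37 ± 0.19 that did not pass (adjusted p = 0.141). The gap between the 2 probe sets was 3.33 ± 0.33 at P21 and 3.12 ± 0.48 at P3 (two-sided exact permutation p = 0.420, adjusted p = 0.630 over the 6 pairs of probe sets within a gene). The untested 1390559_at ran from 1.49 to 4.15 at P21, from 0.93 to 3.93 at P8 and from 0.93 to 3.15 at P3.

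The oligodendrocyte and neuronal lists were also higher at P21 than at P3, by 3.79 and 1.70 in their mean log2 levels (exact permutation adjusted p = 0.0238 each). Of the 9 neuronal markers, 7 were called higher by limma and 0 lower, against 21.2% and 19.2% of all genes. Their rises were uneven, at 4.34 for Kcna1, 3.27 for Kcnc1, 2.95 for Calb2 and 0.40 for Snap25. Slc17a6 (0.15) and Nefm (0.27) did not pass. The lists were chosen with earlier results of these data known. Their calls and p-values therefore describe the listed genes and are no independent measure of how much neuronal RNA was taken. Summed intensity of the oligodendrocyte list was 7251.1 to 10792.7 at P21 and 804.2 to 2160.7 at P3, and that of the neuronal list 13124.9 to 20355.2 at P21 and 8615.4 to 9708 at P3. P8 minus P3 was 2.68 for the oligodendrocyte list and 0.83 for the neuronal list (adjusted p = 0.0262 each), and P21 minus P8 was 1.12 (adjusted p = 0.0519) and 0.87 (adjusted p = 0.0327) in the same order. The part of other cells in the rises was not tested.

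Slc38a5 (SNAT5), a system N transporter that exchanges glutamine with protons and runs in either direction, fell most of all members. Its log2 level was 4.47, 5.83, 5.41, 5.66 and 5.74 at P21, and at P3 it ran from 7.09 through 8.08 to 8.75. No P21 array reached the lowest P3 array. The means were 5.42 ± 0.56 at P21 and 7.99 ± 0.59 at P3, a difference of -2.57 ± 0.46 (adjusted p = 5.18e-04, 95% interval -3.55 to -1.59), or 5.94-fold lower. The P8 animals spread widely, at 7.17, 5.12, 5.64 and 8.00, and overlapped both other ages. P8 minus P3 was -1.51 ± 0.49 and just missed the threshold (adjusted p = 0.0522), and P21 minus P8 was -1.06 ± 0.51 (adjusted p = 0.181). Over the arrays left out in turn, P8 minus P3 ran from -2.02 (adjusted p = 0.0108, without P8 replicate 4) to -1.06 (adjusted p = 0.159, without P8 replicate 2). P21 minus P8 ran from -1.51 (adjusted p = 0.0564, without P8 replicate 2) to -0.56 (adjusted p = 0.452, without P8 replicate 4).

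Slc38a5 is known from astrocytes and from the endothelium of brain vessels, so the lists of these cells stand beside its fall. Of all genes tested, 21.2% were called higher at P21 than at P3 and 19.2% lower, shares that stand beside each list here. Of the 13 astrocyte markers, 4 were called higher at P21 than at P3 (Gjb6, S100b, Slc1a2 and Ntsr2) and 3 lower (Aldh1l1, Slc1a3 and Slc4a4). Gjb6 and Slc1a2 averaged below log2 4 at P3. Gjb6 passed the filter mainly through its P8 and P21 arrays, and Slc1a2 mainly through its P21 arrays. Summed astrocyte intensity was 6817.5 to 8542.3 at P21 and 6293.8 to 12396.3 at P3, and the list's mean differed by 0.29 (exact permutation adjusted p = 0.116). The oligodendrocyte precursor list (5 of 6 measured) averaged 5.72 ± 0.44 at P21 and 6.39 ± 0.28 at P3 (adjusted p = 0.0519), with summed intensity of 403.2 to 792.1 at P21 and 1367.7 to 1894.3 at P3. Pdgfra, Cspg4 and Olig1 were called lower in it and Olig2 and Sox10 higher, of which Cspg4 at P21 and Olig2 at P3 averaged below log2 4. The endothelial list (7 of 8 measured) averaged 6.46 ± 0.12 at P21 and 6.06 ± 0.25 at P3 (adjusted p = 0.0397), with 2 of 7 markers higher and 0 lower by limma and summed intensity of 653.1 to 853.7 at P21 and 444.2 to 853 at P3. The inhibitory neuron list (4 of 5 measured) averaged 4.69 ± 0.41 at P21 and 5.68 ± 0.52 at P3 (adjusted p = 0.0262), with summed intensity of 292.5 to 784.3 at P21 and 753.6 to 1357.8 at P3. Both of its tested markers, Gad1 and Slc32a1, were called lower at P21. The list's mean also holds Slc6a5, never above log2 4, and Gad2, which averaged 1.60 ± 0.51 at P21 and 3.23 ± 1.13 at P3. Neither passed the filter, so the mean leans in part on values near the floor. The part of these cells in the falls of Slc38a5 and Slc1a1 was not tested.

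Slc38a3 (SNAT3), the main system N transporter of astrocytes, showed no call at any age. Its log2 level was 6.52, 6.30, 6.61, 6.29 and 6.26 at P21, 6.19, 6.48, 6.28 and 7.05 at P8, and from 5.74 through 6.27 to 6.57 at P3. The P21 range overlapped both earlier ages. P21 minus P3 was 0.22 ± 0.20 (adjusted p = 0.421), with a 95% interval of -0.21 to 0.65.

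Glul, glutamine synthetase, which makes glutamine from glutamate and ammonia, gave no call in any comparison of the 15 arrays. The log2 level of 1367632_at was 9.88, 10.22, 9.77, 10.11 and 9.84 at P21, and from 9.91 through 10.08 to 10.61 at P3. At P8 it was 9.69, 9.87, 10.35 and 10.13. The ages overlapped, with P21 minus P3 at -0.22 ± 0.17 (adjusted p = 0.348, 95% interval -0.58 to 0.15). The probe set 1386870_at averaged 8.16 ± 0.15 at P21 and 8.10 ± 0.56 at P3, a difference of 0.06 ± 0.23 (adjusted p = 0.861). It was lower at P8, at 7.57 ± 0.21, where no array reached the lowest P21 array. P21 minus P8 was 0.59 ± 0.26 and did not pass (adjusted p = 0.137). Without P3 replicate 1, both P21 minus P8 (0.59, adjusted p = 0.0368) and P8 minus P3 (-0.73, adjusted p = 0.0188) passed for this probe set. The dimmest, 1367633_at, exceeded log2 4 on 11 of 15 arrays and averaged 4.52 ± 0.60 at P21 and 4.54 ± 0.55 at P3.

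Glud1, mitochondrial glutamate dehydrogenase, likewise gave no call in the 15 arrays. For 1370200_at the log2 level was 9.84, 9.98, 10.08, 9.95 and 9.83 at P21, 10.04, 10.22, 10.38 and 10.51 at P8, and from 9.999 through 10.22 to 10.41 at P3. The P21 arrays lay low but overlapped both earlier ages. P21 minus P3 was -0.26 ± 0.13 (adjusted p = 0.143, 95% interval -0.54 to 0.02), and P21 minus P8 was -0.35 ± 0.15 (adjusted p = 0.122), which passed with a trended robust variance (adjusted p = 0.0481). The probe set 1387878_at gave 8.39 ± 0.18 at P21 and 8.50 ± 0.42 at P3, a difference of -0.11 ± 0.23 (adjusted p = 0.745). A p that misses the threshold does not show that Glul and Glud1 stayed level. The P21 minus P3 intervals of 1367632_at and 1370200_at hold no fall beyond 0.58 on the log2 scale. Those of the other probe sets reached down to -0.43 (Glul 1386870_at), -0.60 (Glud1 1387878_at) and -0.70 (Glul 1367633_at).

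Slc1a1 (EAAC1), which carries glutamate and cysteine into neurons, fell at P21 by its probe set 1370367_at. The log2 level was 7.39, 8.23, 7.87, 7.87 and 7.72 at P21, 8.57, 8.66, 8.49 and 8.31 at P8, and from 8.54 through 8.59 to 9.31 at P3. Every P21 array lay below every P8 and P3 array. P21 minus P3 was -0.92 ± 0.18 (adjusted p = 9.14e-04), or 1.89-fold lower, from means of 7.81 ± 0.30 at P21 and 8.73 ± 0.30 at P3. P21 minus P8 was -0.70 ± 0.20 (adjusted p = 0.0254), a call that was lost without P8 replicate 1 (0.0518), P8 replicate 2 (0.0654) or P21 replicate 1 (0.0555).

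The other probe set of Slc1a1 gave a different picture. The log2 level of 1387932_at was 7.18, 6.96, 6.06, 6.23 and 6.56 at P21, and from 6.35 through 6.40 to 6.60 at P3. P21 arrays lay on both sides of the narrow P3 range, with a difference of 0.15 ± 0.26 (adjusted p = 0.689). The gap between the 2 probe sets was 1.21 ± 0.62 at P21 and 2.28 ± 0.21 at P3, with no overlap (two-sided exact permutation p = 0.00216, the smallest that 5 against 6 animals can give, adjusted p = 0.0130 over the 6 pairs within a gene). This was the only pair of the 6 to pass. The GAPDH gap between 3' and 5' ends differed between the same ages, as given above, while that of beta-actin was 4.32 ± 0.69 at P21 and 4.70 ± 0.30 at P3 (adjusted p = 0.327). Its part in the disagreement was not tested. The fall of Slc1a1 therefore rests on 1370367_at alone.

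Between P8 and P3, 0 of the 12 member probe sets passed by limma, against 14.3% of all probe sets tested (6.76% higher and 7.54% lower), and 2 had an unadjusted p under 0.05, both lower at P8 (Slc38a5 and 1386870_at of Glul). The median difference was -0.14 over the members and -0.03 over all. Between P21 and P8, 3 passed, 2 higher (Slc38a1 and Slc38a2) and 1 lower (Slc1a1), against 15.6% of all (7.83% higher and 7.77% lower). These comparisons share their animals, so the values of each age are set side by side and no agreement between comparisons is counted.

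**Figure D3:**
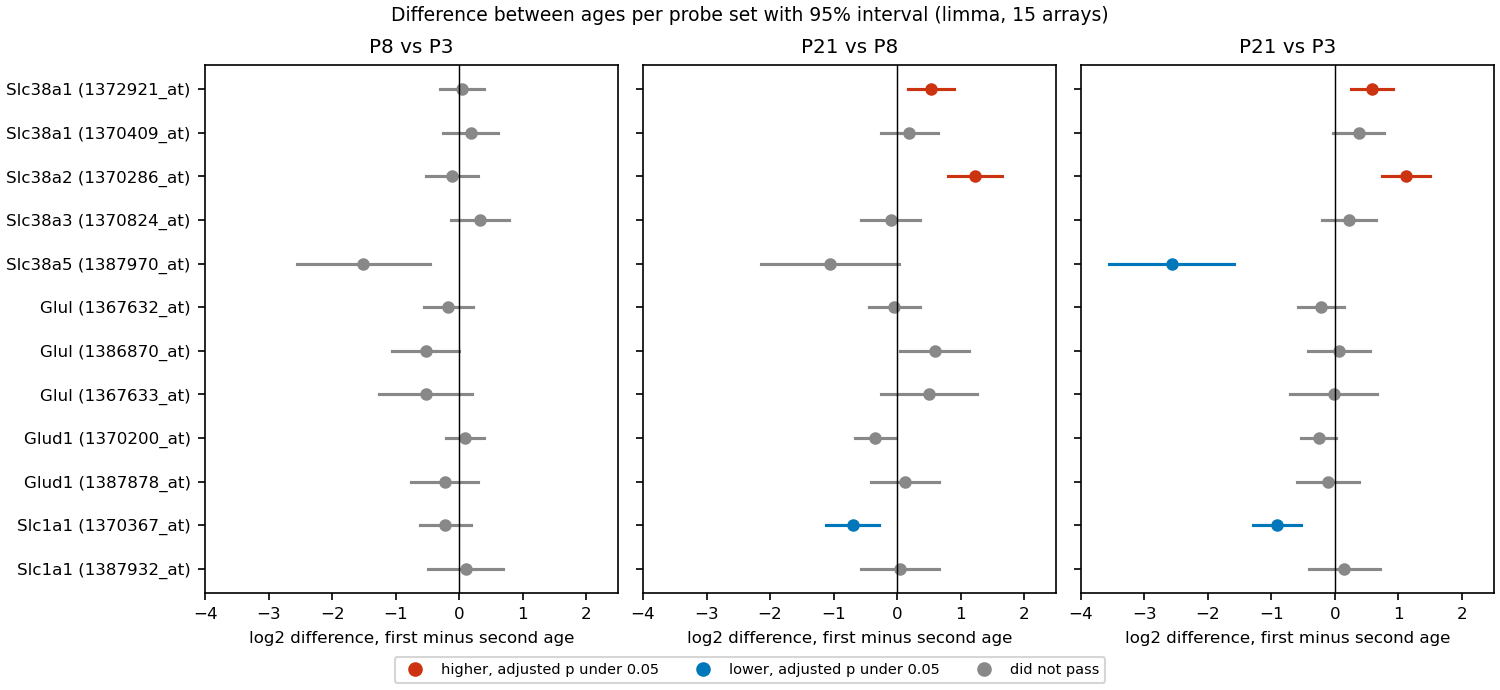
log2 difference with its 95% interval (x axis) of each of the 12 tested member probe sets (y axis) for P8 against P3, P21 against P8 and P21 against P3. Red points are higher and blue points lower in the first-named age with an adjusted p under 0.05, and grey points did not pass. No point is coloured for P8 against P3, and Slc38a5 has the widest interval for P21 against P3, from -3.55 to -1.59.

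Between P8 replicates 5 to 9 and P8 replicates 1 to 4, the ranges of 5 of the 12 tested member probe sets did not overlap, against 38.3% of all probe sets tested, and those of the other 7 did. No test was made, because these arrays were set apart on their array measures. For Glud1 (1370200_at) they read 7.60, 7.67, 7.44, 7.41 and 7.51, against 10.04 to 10.51 in P8 replicates 1 to 4. For Slc38a1 (1372921_at) they read 7.66, 7.56, 8.81, 7.45 and 7.58, against 9.95 to 10.24. Both sets of P8 animals were thus separated by more than their spread for these genes. For Slc38a2 they read 8.71, 8.61, 8.97, 7.92 and 8.46, against 8.81 to 9.83, and for Slc38a5 6.92, 6.83, 7.30, 7.45 and 5.43, against 5.12 to 8.00, so these ranges overlapped. Glul (1367632_at) ran from 7.98 to 9.27, against 9.69 to 10.35, and Slc1a1 (1370367_at) from 5.27 to 7.56, against 8.31 to 8.66, both without overlap. Slc38a3 ran from 4.02 to 6.97, against 6.19 to 7.05, and the other Slc1a1 probe set from 6.61 to 7.23, against 5.55 to 7.08. The dimmer probe sets of Slc38a1 and Glul also overlapped between the 2 sets, while that of Glud1 (1387878_at) did not, at 5.47 to 7.42 against 7.96 to 9.01. With all 20 arrays in the fit, the P21 minus P3 difference kept its call for Slc38a2 (adjusted p = 0.0174) and Slc38a5 (0.00101) and lost it for Slc38a1 (0.614) and Slc1a1 (0.248). In that fit 10.2% of all 26332 probe sets tested were called. For P8 minus P3, that fit called 5 of the 12 member probe sets lower and 0 higher. Of all 26332 it called 6983 (26.5%), of which 4740 were higher and 2243 lower. It pools both sets of P8 arrays, and the median difference of all probe sets in it was 0.33. Its differences therefore stand relative to that shift. The members called lower were Slc38a1 (1372921_at, -1.23, adjusted p = 0.0496), Slc38a5 (-1.34, adjusted p = 0.0286) and Glul (1367632_at, -0.88, adjusted p = 0.0454). The other members called lower were both probe sets of Glud1 (-1.44, adjusted p = 0.0422 for 1370200_at, and -1.18, adjusted p = 0.0393 for 1387878_at).

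The genes whose levels followed each member most closely over the 15 arrays were taken from 7239 genes averaging at least log2 6, as a description with no test. The arrays share age and array-wide measures, so a gene that changes with age will tend to follow a member that does. Slc38a2 was followed by Fgf1, a fibroblast growth factor (Pearson r = 0.959), Wnk2, a kinase (0.958), and Ube3b, a ubiquitin ligase (0.951), and Slc38a1 by Ap1s2 (0.919), Tnfrsf21 (0.898) and Kiaa1191 (0.894). Slc38a5 was followed by Slc4a4, a sodium bicarbonate cotransporter that is also in the astrocyte list (0.969), Stbd1 (0.957) and Mmp14, a membrane metalloprotease (0.946). Slc4a4 averaged 10.46 at P3, 9.14 at P8 and 8.69 at P21. Slc1a1 was followed by Sccpdh (0.938), Kpna3 (0.917) and Rpl7 (0.917), and Glud1 by Tlcd1 (0.922), Serpine2 (0.895) and Pitpnc1 (0.876). The closest genes were looser for Glul, with Ptges3l (0.847), Rhob (0.796) and Smn1 (0.787), and for Slc38a3, with Adap1 (0.820), Adgrb1 (0.793) and Slc7a10 (0.779).

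Other genes of glutamine and glutamate handling changed in both directions. Of 53 listed, 49 were measured and 46 tested, each by its brightest probe set. At P21 relative to P3, 11 rose, 10 fell and 25 did not pass, against 40.4% of all genes called (21.2% higher and 19.2% lower). Of the 21 called, 3 averaged below log2 4 at the lower age (Slc1a2 at P3, Bcat2 and Slc1a6 at P21). Their median difference was 0.04, as was that of all genes tested. All 46 enter these counts, and only some are described below.

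On the mitochondrial side, Gls2, a glutaminase that frees glutamate from glutamine, had the largest rise of the list. Its level ran from 8.90 to 9.50 at P21, against 5.80 to 6.44 at P3, a difference of 2.93 ± 0.46 (adjusted p = 1.58e-04). At P8 it spread from 4.57 to 7.54, and P21 exceeded P8 by 3.02 ± 0.51 (adjusted p = 0.00107). Slc25a22, a carrier of glutamate across the inner mitochondrial membrane, averaged 8.19 ± 0.22 at P3, 9.11 ± 0.34 at P8 and 10.65 ± 0.35 at P21, and each age differed from the others (adjusted p = 0.00869 for P8 against P3, 2.54e-04 for P21 against P8 and 2.87e-07 for P21 against P3). The related carrier Slc25a18 moved the other way, at 7.28 ± 0.41 at P21 and 8.66 ± 0.27 at P3 (difference -1.38 ± 0.21, adjusted p = 1.52e-04). Pc, pyruvate carboxylase, which refills the citric acid cycle, averaged 6.27 ± 0.47 at P21 and 4.65 ± 0.31 at P3 (adjusted p = 5.76e-05).

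Among the glutamate carriers, Slc1a3 (GLAST), an astrocyte uptake carrier, averaged 10.75 ± 0.31 at P3, 9.63 ± 0.21 at P8 and 8.67 ± 0.45 at P21, a P21 minus P3 difference of -2.08 ± 0.21 (adjusted p = 2.96e-06). Slc1a2, the other main astrocyte carrier, lay near the filter of log2 4 and passed it mainly through its P21 arrays, so its levels are given without a test, at 4.20 to 4.66 at P21 and 2.70 to 4.01 at P3. Both are in the astrocyte list, whose summed level is given above, and the part of astrocyte RNA was not tested. Slc17a7, a vesicular glutamate transporter, averaged 8.66 ± 0.19 at P21 and 7.38 ± 0.73 at P3, with overlapping arrays and an adjusted p of 0.0494. It is also a transcript of cerebellar granule cells, whose list (4 of 4 measured) averaged 5.98 ± 1.09 at P21 and 5.10 ± 0.25 at P3 (exact permutation adjusted p = 0.128), with summed intensity of 130.2 to 2041.4 at P21 and 209.2 to 465.4 at P3. Of that list 1 marker of 4 was called higher, against 21.2% of all genes tested. It was Gabra6, at 5.44 to 10.21 at P21 and 2.38 to 3.93 at P3. Gabra6 was below log2 4 on every P3 array and passed the filter only through the later ages. The part of such cells in the level of Slc17a7 was not tested. Slc17a6, the other vesicular transporter measured, averaged 11.28 ± 0.22 at P21 and 11.13 ± 0.07 at P3, and did not pass (adjusted p = 0.418).

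Between P8 and P3, 3 of the 46 rose and 5 fell, against 15.3% of all genes called (8.30% higher and 6.99% lower). Besides Slc1a3 and Slc25a22, the smallest p-values were those of Gclc, a subunit of the enzyme that starts glutathione synthesis from glutamate, which fell by 0.83 ± 0.20 on the log2 scale (adjusted p = 0.0155), and Slc25a11, the mitochondrial oxoglutarate carrier, which rose by 0.65 ± 0.16 (adjusted p = 0.0169). Between P21 and P8, 7 rose and 3 fell, against 17.5% of all genes called (8.50% higher and 8.97% lower). These included Slc1a2, at 4.20 to 4.66 at P21 and 2.32 to 3.56 at P8 and with the limit given above, Slc25a18 (-1.15 ± 0.24, adjusted p = 0.00436) and Slc17a7 (1.93 ± 0.53, adjusted p = 0.0234).

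**Figure D4:**
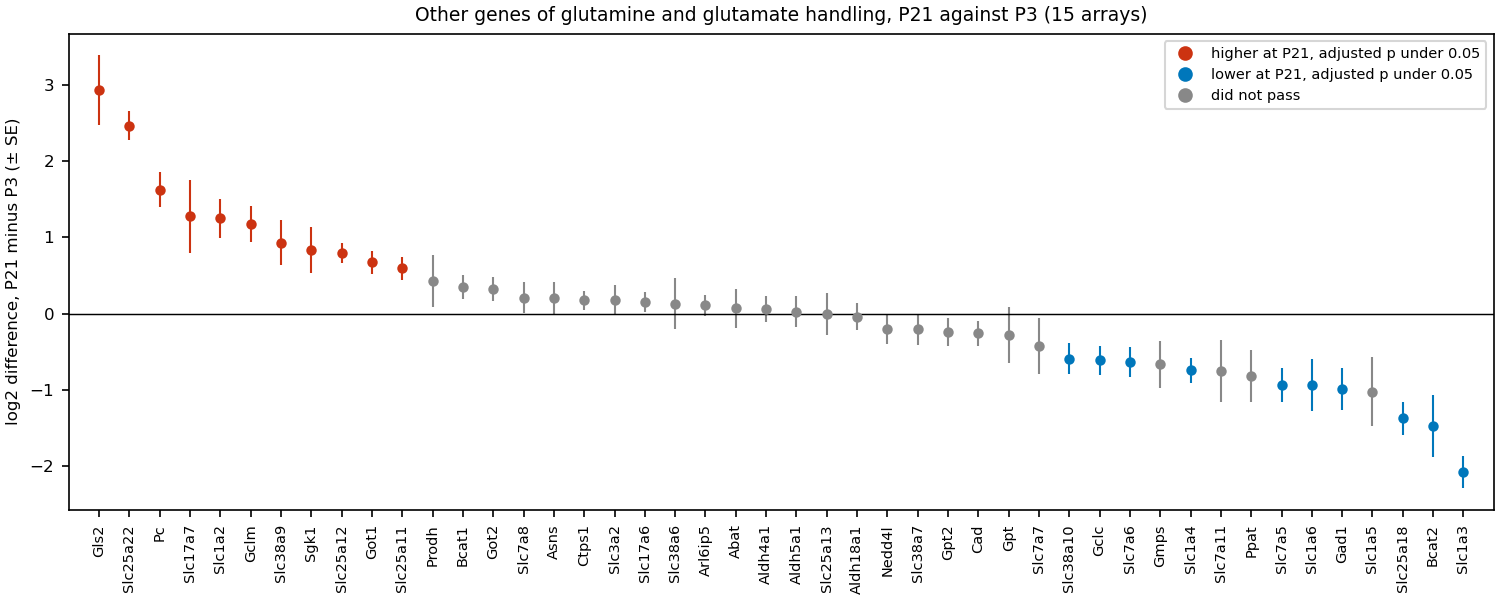
log2 difference of P21 minus P3 with its SE (y axis) for each of the 46 other tested genes of glutamine and glutamate handling (x axis, in order of the difference). Red points are higher and blue points lower at P21 with an adjusted p under 0.05, and grey points did not pass. Gls2 (2.93) and Slc25a22 (2.47) stand at the top and Slc1a3 (-2.08) at the bottom.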

How the data were processed

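Biotin-labelled RNA of 20 animals was measured on 1 array each. The deposited values are linear intensities, 1 per probe set and array. GCRMA stands in the submitters' processing notes without a version or role. Since GCRMA yields log2 values and these are linear, their source tool was "not given in the sources used here". Each array had a mean of 100 to 3 digits without the lowest and highest 2%, so no further normalization was added. The labels call the samples biological replicates from separate animals.

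Of 31099 probe sets, 20832 are annotated with 1 gene, 436 with several and 9831 are unnamed here. Symbols were updated through RefSeq (GRCr8): 20764 by Entrez identifier, 2 by accession and 66 kept.

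Values were analysed as log2(intensity + 1), which understates changes of dim probe sets, with limma 3.58.1 in R 4.3.3 (lmFit, eBayes, 3 ages in 1 fit, 15 arrays). The number of arrays limits the precision. Array measures and gaps between probe sets were compared by two-sided exact permutation tests. limma was tested on simulated data. Replicate numbers do not pair the animals: same-numbered arrays' deviations correlated between -0.05 and 0.08. The members, gene lists and the arrays set apart were chosen with earlier results of these data known, and the within-gene pairs after values were seen. Named are all members, the 4 smallest p-values of the pathway list per comparison, Slc17a6, Slc17a7, Slc1a2 and Slc1a3, and the 3 genes most like each member. Alternatives were other arrays in the fit, filters, a pseudocount of 16, normalizations, variance models, 1 probe set per gene, the replicate number as a block and each array left out.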

Additional observations from a re-analysis of the deposited data

Results flagged for a closer look

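Of 52 groups of arrays checked for a single array far from the rest, 4 had one, and chance alone flags about 1 group in 20. For Slc1a1 (1370367_at), P3 replicate 6 was the highest of its group at 9.31, against 8.54 to 8.81 for the others; without it the P21 minus P3 difference was -0.80 (limma adjusted p = 0.00151). For Glud1 (1387878_at), P8 replicate 4 was the highest at 9.01, against 7.96 to 8.06. Among the P8 arrays set apart, P8 replicate 5 was the lowest for Slc1a1 (1370367_at) at 5.27, against 7.31 to 7.56. In the same set P8 replicate 7 was the highest for Slc38a1 (1372921_at) at 8.81, against 7.45 to 7.66.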

How the results depend on the processing

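The P21 minus P3 calls of Slc38a2 and Slc38a5 held in 27 of 27 alternatives, with differences of 1.06 to 1.22 and -2.75 to -2.21. Slc1a1 (1370367_at) held in 26 and Slc38a1 (1372921_at) in 25. Slc38a1 also lost its call with P8 replicates 5 to 9 as a group of their own (adjusted p = 0.0726). The P21 minus P8 call of Slc38a1 was lost in 17 of 27, that of Slc1a1 was lost in 6 and turned its sign in 1 more, and the P8 minus P3 difference of Slc38a5, not called here, passed in 9 of 27. The cause of these and the following changes was not tested.

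Member calls, P21 against P3, were 2 of 12 with all 20 arrays, where 10.2% of all probe sets were called. P8 against P3, they were 5 of 12 with all 20 arrays, where 26.5% of all were called. They were 1 of 11 with a filter at log2 6, and 1 of 12 each with a pseudocount of 16 and a trended robust variance. With 1 probe set per gene they were 1 of 7, where 17.1% of all were called. The main fit called 14.3% of all for this comparison. P21 against P8, they were 1 with P8 replicates 5 to 9 as a group of their own (6.4% of all) and 1 with only the ages compared (7.5% of all). Pathway calls, P21 against P3, were 6 of 48 with all 20 arrays (10.2% of all probe sets) and 13 of 48 with those 5 arrays as a group of their own. P8 against P3, they were 4 of 48 with those 5 arrays as a group of their own (4.5% of all). They were 5 of 46 with only the ages compared, 5 of 49 with no filter and 1 of 46 with the replicate block (7.0% of all). P21 against P8, they were 6 of 46 with only the ages compared (7.5% of all). Calls over all probe sets, 8147 of 22417 for P21 against P3, were 2696 (10.2%) with all 20 arrays and 5123 of 12023 genes (42.6%, against 36.3%) with 1 probe set per gene. Both fits that hold P8 replicates 5 to 9 tested 26332 probe sets. For P8 against P3 the calls over all were 3207 (14.3%), against 6983 (26.5%) with all 20 arrays. Of these 6983, 4740 were higher and 2243 lower, where the 15 arrays gave 1516 and 1691. They were 1187 (4.5%) with those 5 arrays as a group of their own, 2056 (17.1%) with 1 probe set per gene and 1559 (7.0%) with the replicate block. For P21 against P8 they were 3497 (15.6%), against 1687 (6.4%) with those 5 arrays as a group of their own and 1691 (7.5%) with only the ages compared. All 20 arrays moved the median of all probe sets to 0.33 for P8 against P3 and -0.39 for P21 against P8, so differences in that fit stand relative to these shifts.

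Leaving out each array in turn gave 4 to 4, 0 to 2 and 1 to 4 member calls for P21 against P3, P8 against P3 and P21 against P8, 17 to 23, 4 to 8 and 7 to 12 pathway calls, and 7254 to 8970, 2246 to 3269 and 2767 to 3793 calls over all probe sets. With the replicate block the member calls were 4 for P21 against P3 (32.0% of all probe sets), 0 for P8 against P3 (7.0%) and 2 for P21 against P8 (11.2%). In the last of these Slc38a1 lost its call (adjusted p = 0.0912). The numbers pair no animals by the check of the arrays' deviations.

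Differences that changed sign were uncalled in the 15 arrays, except that of Slc1a1 (1370367_at) for P21 against P8, which was 0.15 with all 20 arrays. In that fit P21 minus P8 was also 0.66 for Glul 1367632_at, -0.20 for Glul 1367633_at, 1.18 for Glud1 1370200_at, 0.39 for Slc38a3 and -0.14 for Slc1a1 1387932_at, and P8 minus P3 was 0.17 for Glul 1367633_at, -1.44 for Glud1 1370200_at, -0.17 for Slc38a3 and -1.23 for Slc38a1 1372921_at. Array weights gave -0.020 for Glul 1386870_at (P21 minus P3), 0.036 for Slc38a2 (P8 minus P3), and 0.060 for Glul 1367632_at and -0.18 for Slc1a1 1387932_at (P21 minus P8). Quantile normalization gave -0.0016 for Slc38a1 1372921_at (P8 minus P3), subtracting array medians -0.036 for Slc1a1 1387932_at (P21 minus P8), and the replicate block 0.16 for Glul 1367633_at (P21 minus P3). Over the arrays left out, P21 minus P3 ran from -0.18 to 0.19 for Glul 1367633_at and -0.14 to 0.19 for Glul 1386870_at, P21 minus P8 from -0.15 to 0.070 for Glul 1367632_at, -0.29 to 0.22 for Slc1a1 1387932_at and -0.21 to 0.079 for Slc38a3, and P8 minus P3 from -0.074 to 0.44 for Slc1a1 1387932_at and -0.26 to 0.078 for Slc38a2.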
